A study of Mus musculus with 9 samples.

Results

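Livers of mice given AAV-GFP were compared with livers of untreated mice, 3 arrays against 3, which is 6 of the 9 arrays of the study. AAV is adeno-associated virus, here a carrier that brings a gene into cells, and GFP is green fluorescent protein, a jellyfish reporter with no known role in mouse liver. The comparison asks what the vector and its reporter do on their own. All groups were male C57BL/6 mice of 3 months: the untreated group, labelled WT Liver (replicates 2, 3 and 4), the AAV-GFP group (replicates 1, 2 and 3) and a further group given AAV-hGRβ, a vector that carries human glucocorticoid receptor β (replicates 1, 2 and 3). The AAV-hGRβ group shares the estimate of the spread and is otherwise given only beside the values of the comparison. Serotype, promoter, dose, route and time after the vector are not given in the sources used here, and the level of GFP itself was not analysed here. Nothing in the labels says that replicates were different mice, so a p-value measures the spread between these arrays, which may be technical.

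Of 41174 gene probes, 22879 cleared background well, by the scanner's own flag, on each of the 3 arrays of the untreated group, the AAV-GFP group or both (21007 through the untreated arrays and 22446 through the AAV-GFP arrays), and they stood for 15857 genes. A level is the log2 signal of a probe relative to the 75th percentile of its own array, so a level of 0 lies at that percentile. A difference is the mean level of AAV-GFP minus that of untreated, on the log2 scale. A probe kept through a single group was not well above background on every array of the other, and list medians include such genes.

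As background, an AAV particle binds glycans such as heparan sulfate and a protein receptor on the cell surface, passes through endosomes and the Golgi, and releases its DNA in the nucleus. Vector DNA in endosomes can be sensed by the receptor TLR9, which signals through the factor IRF7 to type I interferon and to the antiviral genes that interferon switches on. The ends of vector genomes are also handled by proteins of the DNA damage response. The liver takes up much of a vector given into blood, mostly in hepatocytes, the cells that make bile acids, glucose and most plasma proteins.

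The liver label held in the data: the hepatocyte markers Alb, Apoa1, Ttr, Hnf4a and Asgr1 were well above background on all 9 arrays, as were markers of Kupffer, endothelial and stellate cells. The share of gene spots that cleared background ran from 54.0% to 82.0% over the arrays. Scan day 1 held untreated replicates 3 and 4 and AAV-GFP replicates 1 and 2, on a slide for each group. Scan day 2 held untreated replicate 2 and AAV-GFP replicate 3, 1 array a group, also on different slides. No slide held arrays of both groups, so slide and group cannot be told apart on either day or with scan day as a block.

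Untreated replicate 2 stood apart from its group. Across the 15857 genes, which are not independent replicates, it correlated with the AAV-GFP arrays at 0.985 to 0.989 and with the other untreated arrays at 0.976 and 0.979. The other untreated arrays correlated with each other at 0.990.

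**Figure D1:**
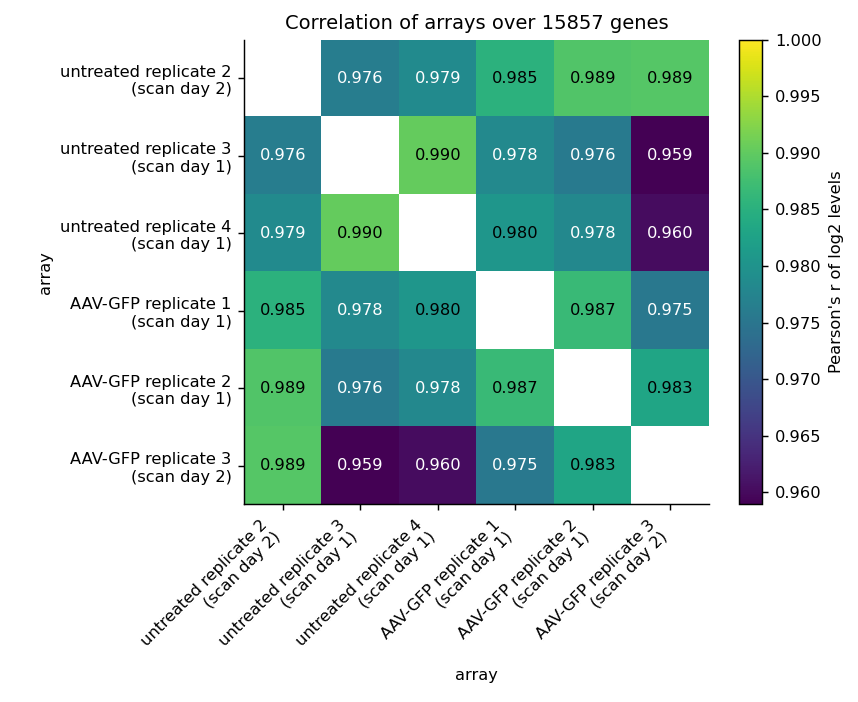
Pearson's correlation of log2 levels over 15857 genes between each pair of the 6 arrays, with the scan day of each array. Untreated replicate 2 lies nearer to the AAV-GFP arrays (0.985 to 0.989) than to untreated replicates 3 and 4 (0.976 and 0.979).

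AAV-GFP replicate 1 stood apart in another way: it carried transcripts of skeletal muscle. Acta1, skeletal muscle actin, was at 3.82 on that array and at -4.45 and -3.32 on the other AAV-GFP arrays, and at -3.85, -5.61 and -5.42 on untreated replicates 2, 3 and 4. Tnni2, a troponin of fast muscle fibres, was at 5.69 there and at -1.97 and -1.44 on the other AAV-GFP arrays. Myl1, a fast myosin light chain, was at 3.80 there, 9.31 above its next highest array. Of 16 contractile and other muscle genes, a list put together after these values were seen, 15 were highest of all 9 arrays on AAV-GFP replicate 1, and the sixteenth, Tnnc1, on untreated replicate 3. The summed linear level of the 16 genes was 180 on that array and 1.19 to 2.57 on the other arrays. These genes therefore give large differences between the groups that rest on 1 array: Acta1 differed by 3.65 with it and by 1.08 without it, and Tnnc2 by 2.66 and -0.21. The part of muscle tissue in other differences was not tested. Results are given without untreated replicate 2 or AAV-GFP replicate 1 where that matters.

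No gene passed the test. With limma over all 9 arrays and Benjamini-Hochberg adjustment, 0 of 15857 genes (0%) had an adjusted p under 0.05, and the smallest adjusted p was 0.157, for Adam12. Without untreated replicate 2 the count was again 0 (smallest adjusted p 0.0556), and without AAV-GFP replicate 1 it was 0 (0.325). The only array whose omission gave a call was untreated replicate 4: Adam12 then had an adjusted p of 0.0163. With scan day as a block, the fit that compares arrays of the same day, Adam12 was also the 1 gene to pass (adjusted p = 0.0136).

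At an unadjusted p under 0.05 there were 1690 genes, 801 higher (5.05% of those tested) and 889 lower (5.61%) with AAV-GFP. This number moved a great deal with single arrays, to 4265 without untreated replicate 2 and to 605 and 594 without untreated replicate 3 or 4. It was 1020 without AAV-GFP replicate 2 and 1086 without AAV-GFP replicate 3. In 948 genes (5.98%) all AAV-GFP arrays lay above all untreated arrays, and in 1507 (9.5%) all lay below.

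The precision sets what 3 arrays a group can show. The median standard error of a difference was 0.24 and the median half-width of its 95% interval 0.55. For 9950 genes (62.7%) the interval lay within 1 log2 unit, or 2-fold, of no difference on both sides. The fit took the arrays as independent, though 2 of the 3 arrays of each group shared a slide. With slide as a random block the estimated correlation within slides was 0.46, so these intervals may be too narrow. The median difference of all genes was 0.03. In the same genes and with the AAV-GFP arrays as the shared group, AAV-hGRβ was higher than AAV-GFP in 131 genes (0.826%) and lower in 13 (0.082%) at an adjusted p under 0.05.

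**Figure D2:**
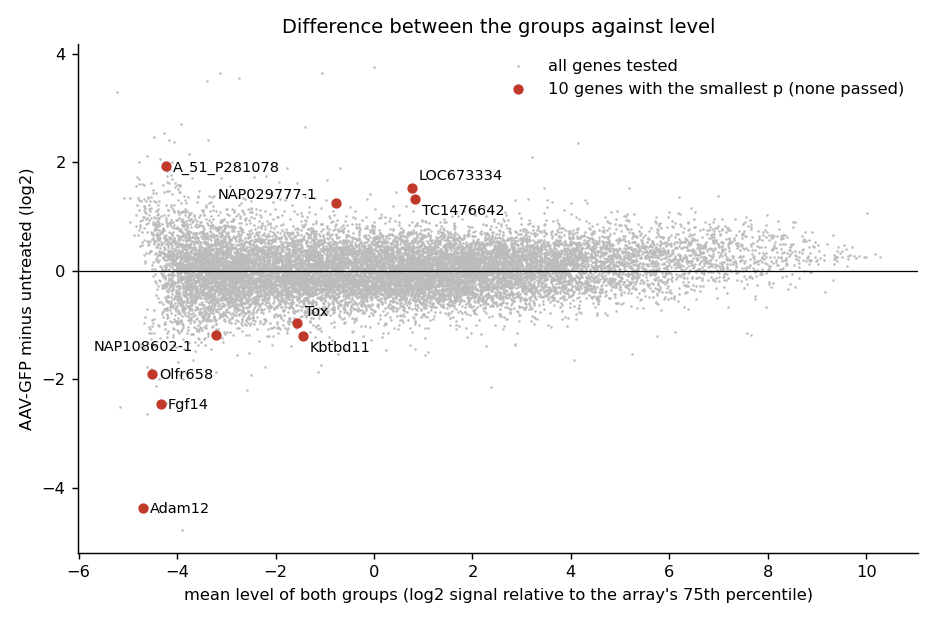
Difference between the groups (AAV-GFP minus untreated, log2, vertical axis) against the mean level of both groups (horizontal axis), 1 grey point for each of 15857 genes, with the 10 genes of smallest p in red. Most genes lie close to 0 and the largest differences are at low levels.

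The 10 genes with the smallest p, none of which passed, came from both ends. Adam12, Olfr658 and Fgf14 were kept through the untreated arrays alone and A_51_P281078 through the AAV-GFP arrays alone, where each is high. With only probes well above background on all 6 arrays, again 0 genes passed, and the smallest adjusted p was 0.380. Several of the 10 names are only identifiers of the array design. The first 30 bases of each such 60-base probe are therefore printed, with that of Adam12 for comparison. All are in lower case, 5′ to 3′ as in the array files, and positions are those files' own on mouse build mm7. The annotation of that build was not used here.
Adam12 (chr7:130289038-130289097, minus strand): gaaaatcaagttagcactaattacaaaatg
LOC673334 (chr17:38064742-38064801, plus strand): atatgcttgtctcaaagattaagccatgca
TC1476642 (chrX:69026800-69026859, plus strand): agacaaacttgccctcactccgcgccttgc
A_51_P281078 (chr19:37402018-37402076, plus strand): tccagggaaatatttaatagctatttcaat
NAP029777-1 (chr15:72626316-72626375, minus strand): aacccgctgcgcccgcggaacccgctgcgc
NAP108602-1 (chr4:118231288-118231347, plus strand): tatatttctgccacttacaactacatgagg

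Adam12 encodes a membrane metalloprotease. Its level was -1.50, -2.37 and -3.67 on untreated replicates 2, 3 and 4 and -6.78, -7.10 and -6.74 on AAV-GFP replicates 1, 2 and 3. The AAV-GFP arrays were all below the untreated ones, which spread over more than 2 log2 units. No AAV-GFP array measured it well above background, so the groups differed by at least 4.91-fold, a bound from the lowest signals above background (fitted difference -4.36 ± 0.50 SE, adjusted p = 0.157). The size depends on the background correction: the fitted difference was -0.20 with normexp and -1.14 with normexp after bright local backgrounds were replaced, so the bound holds only for the scanner's own correction. The AAV-hGRβ arrays were at -5.76, -6.90 and -6.77, and against the same untreated arrays that group had an adjusted p of 0.0057.

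Olfr658, an olfactory receptor gene, was at -3.61, -3.41 and -3.65 untreated and at -5.79, -5.00 and -5.57 with AAV-GFP, where it was not well above background. The difference was at least 2.38-fold (adjusted p = 0.213), a bound that holds only for the scanner's own background correction. The fitted difference was 0.01 with normexp and -0.33 with normexp after bright local backgrounds were replaced. With AAV-hGRβ, Olfr658 was at -3.78, -4.13 and -3.46, so that its low values were in the AAV-GFP group. It was higher with AAV-hGRβ than with AAV-GFP by 1.67 (adjusted p = 0.0191). Fgf14, an intracellular member of the fibroblast growth factor family, was at -3.34, -2.30 and -3.70 untreated and at -5.51, -5.80 and -5.38 with AAV-GFP (adjusted p = 0.424). No AAV-GFP array measured this Fgf14 probe well above background either, so the size of its difference is not given.

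Kbtbd11, a kelch repeat protein gene, had levels of -0.90, -0.55 and -1.11 untreated and of -2.24, -1.89 and -2.01 with AAV-GFP. The difference was -1.20 ± 0.22 (SE, adjusted p = 0.454). Tox, a nuclear protein that is known from T cell development and is also a female-biased gene of mouse liver, was at -1.33, -0.88 and -1.02 untreated and at -1.85, -2.12 and -2.15 with AAV-GFP (-0.97 ± 0.17 SE, adjusted p = 0.454). Both genes had a second probe with a difference of the same sign, -1.54 for Kbtbd11 and -1.30 for Tox. The AAV-hGRβ arrays were at -2.20 to -2.32 for Tox, near the AAV-GFP arrays, and between both groups for Kbtbd11.

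The higher levels were in probes without a current gene symbol. LOC673334 was at 0.40, -0.01 and -0.40 untreated and at 1.50, 1.42 and 1.68 with AAV-GFP, a difference of 1.53 ± 0.21 (SE, adjusted p = 0.213). Whether the LOC673334 probe reads the transcript of a gene or ribosomal RNA was not tested. TC1476642 was at 0.21, 0.06 and 0.21 untreated and at 1.53, 1.44 and 1.50 with AAV-GFP, a difference of 1.33 ± 0.22 (SE, adjusted p = 0.424) with hardly any spread in either group. A_51_P281078 was not well above background untreated (-5.55, -5.17 and -4.85) and stood at -3.87, -3.15 and -2.77 with AAV-GFP, at least 2.58-fold higher. That bound too holds only for the scanner's own correction. The fitted difference was 0.36 with normexp and 0.61 with normexp after bright local backgrounds were replaced. That probe was lower in AAV-hGRβ livers, at -6.10, -6.77 and -6.20, with an adjusted p of 0.0040 against AAV-GFP. NAP029777-1, whose probe is 78.3% G and C, differed by 1.25 ± 0.22 (SE), and NAP108602-1 by -1.19 ± 0.22 (SE).

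**Figure D3:**
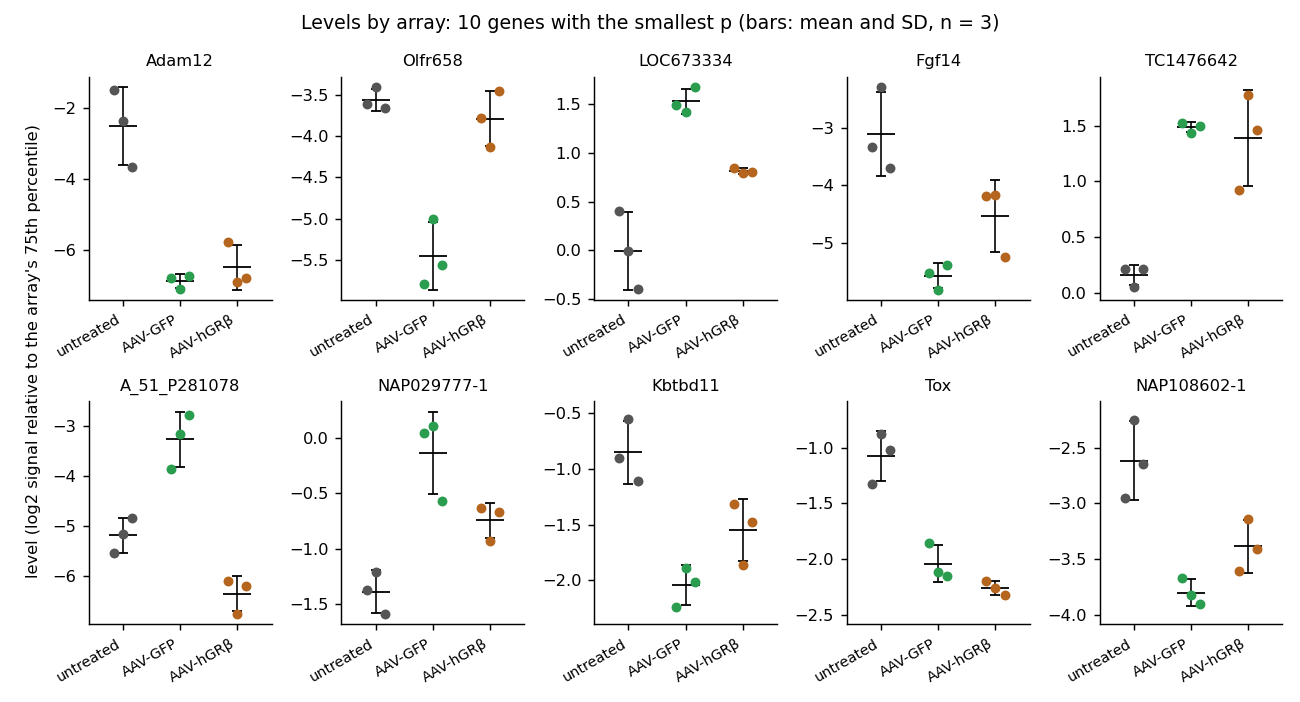
Levels of the 10 genes with the smallest p on each array (points) with group mean and SD (bars, n = 3), on the log2 scale relative to the array's 75th percentile. The untreated and AAV-GFP arrays do not overlap in any panel, and the AAV-hGRβ arrays lie nearer to AAV-GFP for Adam12 and Tox and nearer to untreated for Olfr658.

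Some differences were larger but varied more between arrays, and their genes were chosen after the values were seen. Hbb-bh1, an embryonic globin, was at -4.13, -0.14 and -0.27 untreated and at -5.87, -6.29 and -6.68 with AAV-GFP (adjusted p = 0.454). No AAV-GFP array measured it well above background, so it was kept through the untreated arrays, where it is high. With the scanner's own background correction it was at least 9.80-fold lower. Its untreated levels split by scan day, with the low value on day 2, and it was the only gene to pass when day 1 was tested alone. Slc15a2, a peptide transporter, was at -3.93, -6.04 and -3.58 untreated and at -0.81, -1.68 and -0.42 with AAV-GFP, a difference of 3.55 ± 0.86 (SE, adjusted p = 0.454). Only 2 untreated arrays measured it well above background, so this probe was kept through the AAV-GFP arrays, where it is high. The difference of its second kept probe is not given here. Clec4a3, a lectin receptor of myeloid cells, was at 9.04 on AAV-GFP replicate 3 and between -2.27 and 0.01 on the other 8 arrays. Its value there rests on 1 spot of 1 probe, with a processed intensity of 169541, neither saturated nor marked as an outlier.

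Interferon-stimulated genes, the antiviral genes switched on by interferon, stood slightly higher with AAV-GFP and none passed. Of 55 genes listed, 53 were on the array and 49 were tested. Their median difference was 0.25, with 36 above 0 and 13 below, beside 0.03 for all genes. At an unadjusted p under 0.05 there were 4 higher and 0 lower of the 49, and in 8 the groups did not overlap upwards, where 5.05% and 5.98% of all genes were higher by these measures. The median was 0.37 within day 1, 0.09 within day 2 and 0.092 without untreated replicate 3.

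Irf7, the factor that carries the signal from TLR9 to interferon, was at 0.38, 0.33 and 0.19 untreated and at 1.00, 1.13 and 0.46 with AAV-GFP. All AAV-GFP arrays were above, the day 2 array only just (difference 0.56 ± 0.22 SE, adjusted p = 0.454). Ifit1, which binds viral RNA, was at 0.78, -0.01 and 0.84 untreated and at 0.92, 1.42 and 0.94 with AAV-GFP (0.56 ± 0.26 SE, adjusted p = 0.454). Isg15, a ubiquitin-like antiviral protein, was at 2.55, 1.37 and 2.26 untreated and at 2.54, 3.03 and 2.38 with AAV-GFP. Its groups overlapped (0.59 ± 0.37 SE, adjusted p = 0.477), and within day 2 the difference was -0.17.

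Rsad2, the antiviral enzyme viperin, differed by 0.67 ± 0.26 (SE, adjusted p = 0.454) on its brightest probe and by 0.12 and 0.22 on its other probes. Cxcl10, a chemokine that draws T cells, was at 0.76, -0.19 and 0.17 untreated and at 0.30, 0.83 and 0.19 with AAV-GFP, with no separation (0.19 ± 0.30 SE, adjusted p = 0.757). The interval of that difference ran from -0.48 to 0.86. The same genes were far higher in AAV-hGRβ livers: Irf7 was at 3.26 to 3.82 and Isg15 at 5.41 to 6.39, and 28 of the 49 genes passed for AAV-hGRβ against AAV-GFP, with a median of 1.53.

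Tlr9, the sensor of vector DNA, had 1 kept probe, at 5.31, 5.11 and 5.32 untreated and at 5.79, 5.60 and 5.67 with AAV-GFP. Whether that probe reads Tlr9 alone was not tested. The AAV-GFP arrays were all above (0.44 ± 0.19 SE, adjusted p = 0.454) and the AAV-hGRβ arrays, at 5.18, 5.75 and 5.22, spanned both groups. Of 19 sensors and adaptors tested, 1 was higher and 3 lower at an unadjusted p under 0.05, against 5.05% and 5.61% of all genes. Their median was 0.04 and ran from -0.067 to 0.11 as each array was left out. Traf6, a ubiquitin ligase downstream of Toll-like receptors, differed by -0.74 ± 0.23 (SE) on the probe used and by 0.04 on another. Sting1, the adaptor of cytosolic DNA sensing, was at 0.33, 0.73 and 0.07 untreated and at -0.43, -0.06 and -0.01 with AAV-GFP (-0.54 ± 0.21 SE, adjusted p = 0.454).

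Receptors and entry factors of AAV did not shift together. Of 22 genes, 21 were tested, with 10 above 0, 11 below and a median of -0.03 (-0.091 to 0.11 as each array was left out). At an unadjusted p under 0.05, 0 were higher and 3 lower, against 5.05% and 5.61% of all genes. AU040320, the mouse gene of the AAV receptor, named after its values were seen, was at 1.46, 1.96 and 2.09 untreated and at 1.65, 1.40 and 1.20 with AAV-GFP. Its groups overlapped (-0.42 ± 0.22 SE, adjusted p = 0.456). Ndst1, an enzyme that sulfates heparan chains, was at 5.89, 6.06 and 6.28 untreated and at 5.36, 5.54 and 5.46 with AAV-GFP, and the AAV-GFP arrays were all below (-0.62 ± 0.21 SE, adjusted p = 0.454). All 4 probes of Ndst1 had differences below 0, from -0.98 to -0.48. Extl3, which starts heparan chains, differed by -0.52 ± 0.20 (SE) on the probe used and by 0.45 on another.

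Targets of p53 and the DNA damage response had a median difference of 0.34 over the 26 of 28 listed genes that were tested. At an unadjusted p under 0.05 there were 3 higher and 0 lower, against 5.05% and 5.61% of all genes, and 19 were above 0. The median was 0.27 within day 1, 0.33 within day 2, 0.17 without untreated replicate 3 and 0.14 without AAV-GFP replicate 3. Mdm2, the ubiquitin ligase that holds p53 down, was at -0.08, 0.16 and 0.25 untreated and at 0.71, 1.28 and 2.44 with AAV-GFP. All AAV-GFP arrays were above, spread over a wide range (1.36 ± 0.40 SE, adjusted p = 0.454), while another Mdm2 probe differed by 0.30.

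Rrm2b, a subunit of the p53-induced ribonucleotide reductase, was at -4.55, -6.08 and -6.25 untreated and at -4.37, -3.93 and -3.89 with AAV-GFP (1.56 ± 0.40 SE, adjusted p = 0.454). Only 1 untreated array measured Rrm2b well above background, so it was kept through the AAV-GFP arrays, where it is high. Phlda3, a p53-induced inhibitor of AKT named after its values were seen, was at -0.29, -0.34 and -0.62 untreated and at 0.26, 0.52 and 0.43 with AAV-GFP (0.82 ± 0.29 SE, adjusted p = 0.454). Cdkn1a, the cell cycle inhibitor p21, was at -3.33, -4.01 and -2.92 untreated and at -3.10, -2.17 and -2.77 with AAV-GFP, with overlap (0.74 ± 0.39 SE, adjusted p = 0.456). Only 2 untreated arrays measured Cdkn1a well above background, so it too was kept through the AAV-GFP arrays, where its mean is higher. In AAV-hGRβ livers Cdkn1a was at -0.06, -0.98 and 0.20. Cell cycle genes had a median difference of 0.01 over 33 genes (-0.24 to 0.21 as each array was left out), and Mki67, a marker of dividing cells, was at -1.31, -1.19 and -0.97 untreated and at -2.54, -1.02 and -1.39 with AAV-GFP (-0.49 ± 0.34 SE, adjusted p = 0.499).

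Genes induced by glucocorticoids are of note because the AAV-hGRβ vector carries a form of the glucocorticoid receptor, which AAV-GFP does not. Of 35 such genes, 32 were tested, with 5 higher and 2 lower at an unadjusted p under 0.05, against 5.05% and 5.61% of all genes, and a median of 0.18. The median was -0.10 within day 1, 0.54 within day 2, 0.33 without AAV-GFP replicate 2 and -0.011 without AAV-GFP replicate 3, so its sign rests on that last array. Tsc22d3, the glucocorticoid-induced leucine zipper, was at 2.52, 2.56 and 2.32 untreated and at 2.79, 3.72 and 4.85 with AAV-GFP. The AAV-GFP arrays were all above and spread over 2 log2 units (1.32 ± 0.46 SE, adjusted p = 0.454), and its other probes differed by 1.28 and 1.01.

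Fkbp5, a chaperone of the receptor and a sensitive target of it, was at -2.01, -2.46 and -2.40 untreated and at -2.52, -3.44 and 0.43 with AAV-GFP. Only AAV-GFP replicate 3 was high (0.44 ± 0.83 SE, adjusted p = 0.797), and without that array the difference was -0.69. The other Fkbp5 probes differed by -0.42 and -0.36. On AAV-GFP replicate 3, Pck1, which commits carbon to glucose synthesis, was also at its highest, 8.53 against 6.93 to 7.81 on the other 5 arrays (0.50 ± 0.30 SE, adjusted p = 0.466). Tat, a glucocorticoid-induced enzyme of tyrosine breakdown, was at 6.42, 7.28 and 7.22 untreated and at 6.85, 6.87 and 6.67 with AAV-GFP (-0.18 ± 0.27 SE, adjusted p = 0.751).

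Nr3c1, the mouse glucocorticoid receptor, was at 2.55, 2.73 and 2.71 untreated and at 2.38, 2.35 and 2.57 with AAV-GFP (-0.23 ± 0.16 SE, adjusted p = 0.500), and all 4 of its probes had differences below 0, from -0.46 to -0.23. The 95% interval of the difference ran from -0.59 to 0.13. Of 15 genes of the receptor, its cofactors and its ligand, 1 was higher and 4 lower at an unadjusted p under 0.05. The shares of all genes were 5.05% and 5.61%. Ncoa1, a coactivator, was at 2.07, 2.43 and 2.68 untreated and at 1.79, 1.76 and 1.52 with AAV-GFP (-0.70 ± 0.22 SE, adjusted p = 0.454), and Ncor1, a corepressor named after its values were seen, differed by -0.61 ± 0.25 (SE).

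**Figure D4:**
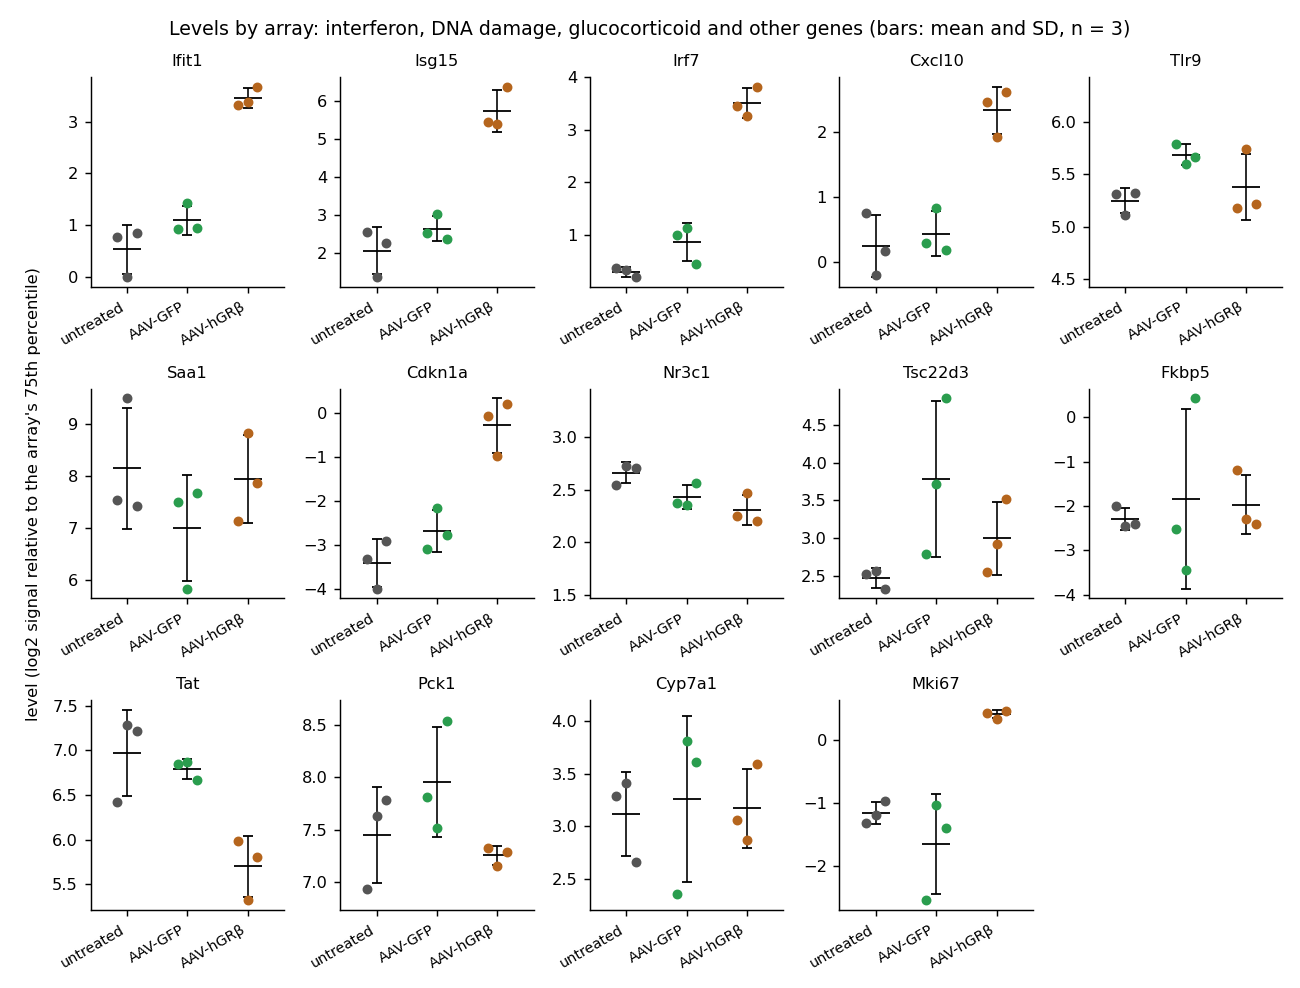
Levels of 14 genes of the interferon, DNA damage, glucocorticoid and liver programmes on each array (points) with group mean and SD (bars, n = 3), on the log2 scale relative to the array's 75th percentile. Ifit1, Isg15, Irf7, Cxcl10 and Cdkn1a are close in untreated and AAV-GFP livers and higher in AAV-hGRβ livers, and Fkbp5 and Tsc22d3 are highest on AAV-GFP replicate 3.

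Genes that make fatty acids and triglycerides mostly stood lower with AAV-GFP, and none passed. All 36 were tested, 30 lay below 0, and at an unadjusted p under 0.05 there were 0 higher and 6 lower, against 5.05% and 5.61% of all genes, with a median of -0.30. The median was -0.23 within day 1, -0.28 within day 2, -0.14 without untreated replicate 3 and -0.17 without AAV-GFP replicate 1, and it stayed below 0 in each of the 24 alternative settings. Some of those settings leave differences unchanged, such as a fit of the 6 arrays of both groups alone, so they could not turn its sign. Pparg, a regulator of fat storage, was at 2.82, 3.13 and 2.79 untreated and at 2.31, 2.29 and 2.06 with AAV-GFP. The groups were well apart and tight (-0.69 ± 0.18 SE, adjusted p = 0.454).

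Plin4, a coat protein of lipid droplets, was at 0.44, 1.49 and 0.67 untreated and at 0.00, -0.55 and -0.31 with AAV-GFP (-1.15 ± 0.36 SE, adjusted p = 0.454). Fasn, the fatty acid synthase, and Acacb, an acetyl-CoA carboxylase, were named after their values were seen. Fasn was at 7.05, 7.96 and 7.58 untreated and at 6.76, 7.08 and 6.74 with AAV-GFP, with overlap (-0.67 ± 0.23 SE). Acacb was at 3.71, 4.85 and 4.37 untreated and at 3.57, 3.44 and 3.38 with AAV-GFP, without overlap (-0.85 ± 0.29 SE). In both, untreated replicate 2 was the lowest untreated array.

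Cholesterol genes followed with a median of -0.11 over 29 genes. That median was -0.044, -0.022 and -0.27 without untreated replicate 2, 3 or 4 and -0.17 without AAV-GFP replicate 3. At an unadjusted p under 0.05, 0 were higher and 4 lower, against 5.05% and 5.61% of all genes. In 8 of the 29 the groups did not overlap downwards, against 9.5% of all genes. Aacs, which makes acetoacetyl-CoA for lipid synthesis, was at 4.14, 5.36 and 5.12 untreated and at 3.91, 3.21 and 2.58 with AAV-GFP, with all AAV-GFP arrays below (-1.64 ± 0.44 SE, adjusted p = 0.454). Lss, lanosterol synthase, differed by -0.64 ± 0.19 (SE) on the probe used and by -0.18 and -0.15 on the others. AAV-hGRβ livers were at 3.10, 3.39 and 2.29 for Aacs, close to the AAV-GFP arrays.

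Growth hormone and insulin signalling had 31 of 34 genes tested, with 1 higher and 6 lower at an unadjusted p under 0.05, against 5.05% and 5.61% of all genes, and a median of -0.20 (-0.32 without untreated replicate 2). Foxo1, a factor that insulin holds out of the nucleus, was at 1.93, 2.85 and 2.94 untreated and at 1.80, 1.71 and 1.51 with AAV-GFP (-0.90 ± 0.29 SE, adjusted p = 0.454), and Insr, the insulin receptor, differed by -0.84 ± 0.27 (SE). The genes with the widest range here answer to pulses of growth hormone through STAT5, and they were named after their values were seen. Cish, induced by growth hormone, was at 3.52, 2.95 and 3.84 untreated and at 3.81, -0.71 and 0.80 with AAV-GFP. Bcl6, repressed by it, was at 2.31, 1.20 and 2.99 untreated and at 2.50, 5.28 and 5.02 with AAV-GFP. In both genes AAV-GFP replicate 1 was like the untreated arrays and replicates 2 and 3 were not, and neither passed (difference of Cish -2.14 ± 1.00 and of Bcl6 2.10 ± 0.78 SE, adjusted p = 0.454 for both). Onecut1 followed the same arrays, at 2.67, 1.07 and 0.98 with AAV-GFP. The AAV-hGRβ arrays also varied, at 1.24, 3.15 and 1.11 for Cish and 4.56, 2.68 and 3.75 for Bcl6.

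Circadian clock genes had the lowest median of the 44 lists, -0.38 over 20 of 23 genes. At an unadjusted p under 0.05, 0 were higher and 2 lower, against 5.05% and 5.61% of all genes. The median was -0.57 and -0.22 without untreated replicate 2 or 3 and -0.22 without AAV-GFP replicate 2. It was -0.61 within day 1 and -0.09 within day 2, and the hour of collection is not given in the sources used here. Nr1d1, the clock repressor REV-ERB alpha, was at 0.98, 1.11 and 1.08 untreated and at 0.67, 0.09 and 0.12 with AAV-GFP (-0.76 ± 0.28 SE, adjusted p = 0.454), and its 3 probes differed by -0.79 to -0.53. Csnk1d, a kinase of the clock proteins, differed by -0.40 ± 0.17 (SE).

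**Figure D5:**
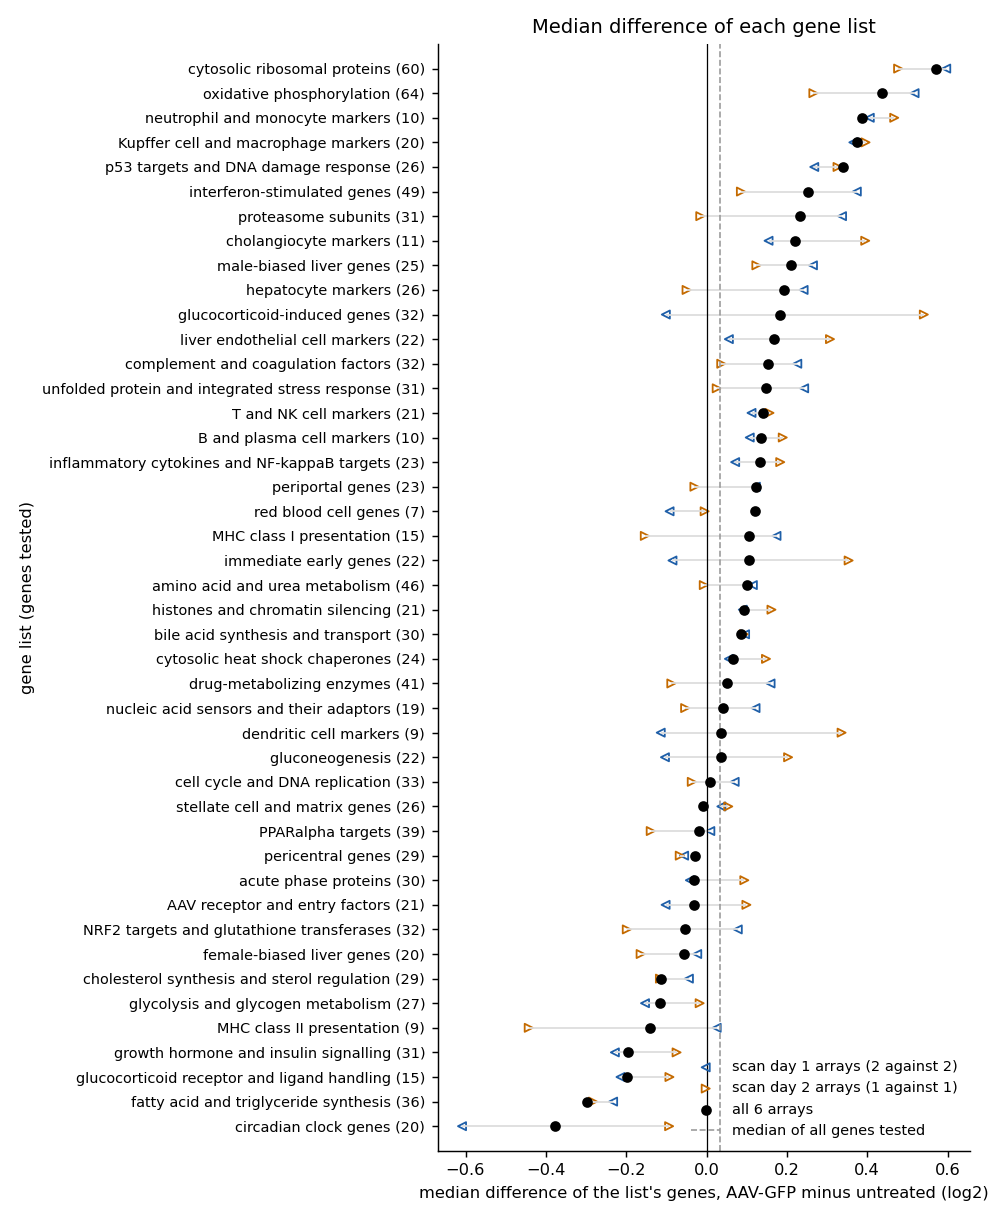
Median difference (AAV-GFP minus untreated, log2) of the tested genes of each of 44 lists over all 6 arrays (black), within scan day 1 (blue, 2 arrays against 2) and within scan day 2 (orange, 1 against 1). The dashed line is the median of all genes, 0.03. Ribosomal proteins lie at the upper end (0.57) and circadian clock genes at the lower end (-0.38).

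The highest medians belonged to ribosomal proteins and to the respiratory chain. All 60 cytosolic ribosomal protein genes lay above 0 (median 0.57), with 3 higher and 0 lower at an unadjusted p under 0.05, and 60 of 64 oxidative phosphorylation genes did (median 0.44), with 4 higher and 0 lower. These called counts are near the 5.05% of all genes that were higher. The median level of the ribosomal list was 7.82, 6.89 and 6.79 on untreated replicates 2, 3 and 4 and 7.34, 7.64 and 8.39 on AAV-GFP replicates 1, 2 and 3. Untreated replicate 2 was thus above all but 1 AAV-GFP array. The medians were 0.85 and 0.69 without untreated replicate 2 and were 0.30 and 0.27 without AAV-GFP replicate 3. The oxidative phosphorylation median was also 0.28 without untreated replicate 3.

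Rpl10a, of the large subunit, was at 5.23, 4.63 and 4.40 untreated and at 5.27, 5.39 and 5.94 with AAV-GFP, barely without overlap (0.78 ± 0.28 SE, adjusted p = 0.454). Ndufb6, of complex I, differed by 0.80 ± 0.33 (SE, adjusted p = 0.454), and its groups overlapped. Bright genes as a whole were shifted too: with genes ranked by level and cut into 4 equal bins, the median difference was 0.15 in the brightest bin, 0.01 in the dimmest and -0.03 in the bin above that. Under quantile normalization, which gives all arrays the same distribution, the list medians were 0.32 and 0.16.

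Markers of other liver cells are given as levels, since in tissue RNA more cells of a type and more RNA per cell cannot be told apart. Kupffer cell and macrophage markers had a median of 0.37 over 20 genes. At an unadjusted p under 0.05, 0 were higher and 0 lower, against 5.05% and 5.61% of all genes. Their summed linear level was 165 to 250 untreated and 195 to 405 with AAV-GFP. That median was 0.17 without untreated replicate 4 and 0.63, 0.21 and 0.22 without AAV-GFP replicate 1, 2 or 3. Clec4f, which marks Kupffer cells and was named after its values were seen, was at 4.69, 4.51 and 4.22 untreated and at 4.44, 5.21 and 5.12 with AAV-GFP. Lyz2, lysozyme of myeloid cells, differed by 1.04 ± 0.48 (SE, adjusted p = 0.454) with overlap. Neutrophil and monocyte markers had a median of 0.39 over 10 of 18 genes, again 0 at that threshold, and it was 0.70 and 0.16 without untreated replicate 2 or 4 and 0.62 and 0.097 without AAV-GFP replicate 2 or 3.

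T and NK cell markers had a median of 0.14 over 21 genes, 13 above 0 and 8 below. Their summed level was 25.3 to 36.7 untreated and 23.3 to 27.8 with AAV-GFP. At an unadjusted p under 0.05, 2 were higher and 0 lower, against 5.05% and 5.61% of all genes. The sign of the median rests on single arrays: it was 0.44, -0.035 and -0.064 without untreated replicate 2, 3 or 4 and 0.27, 0.22 and -0.15 without AAV-GFP replicate 1, 2 or 3. Gzmb, granzyme B of cytotoxic cells, was at -2.95, -3.40 and -3.74 untreated and at -2.43, -2.76 and -2.16 with AAV-GFP, all above (0.91 ± 0.38 SE, adjusted p = 0.454), and in AAV-hGRβ livers at -0.47, -0.65 and 0.81. Cd8a, the coreceptor of cytotoxic T cells, was not tested: it was well above background on 1 untreated and 0 AAV-GFP arrays, and on all 3 AAV-hGRβ arrays. Stellate cell and matrix genes had a median of -0.01 over 26 genes (-0.076 to 0.089 as each array was left out). At an unadjusted p under 0.05, 4 were higher and 0 lower, against 5.05% and 5.61% of all genes. Among the 4 were Tagln, a smooth muscle protein of contractile cells (0.71 ± 0.22 SE), and Timp1, an inhibitor of matrix proteases (0.68 ± 0.24 SE). Hepatocyte markers had a median of 0.19 over 26 genes, 16 above 0 and 10 below. It was 0.082 without untreated replicate 4 and 0.12 and 0.11 without AAV-GFP replicate 1 or 3. At an unadjusted p under 0.05, 0 of these markers were higher and 2 lower, against the same shares of all genes. Hnf4a, a nuclear receptor that maintains the hepatocyte programme, differed by -0.46 ± 0.19 (SE, adjusted p = 0.454), and its other probes differed by -0.48 and 0.33.

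Plasma proteins and bile acid genes completed the liver programme. Saa1, the main inducible acute phase protein, was at 7.53, 9.50 and 7.42 untreated and at 7.50, 5.83 and 7.66 with AAV-GFP (-1.15 ± 0.69 SE, adjusted p = 0.466). High untreated replicate 3 and low AAV-GFP replicate 2 made that difference, and within day 2 it was 0.13. Saa2 and Saa3, named after their values were seen, had the same high and low arrays. Acute phase proteins had a median of -0.03 over 30 genes, with 14 above 0 and 16 below. At an unadjusted p under 0.05, 2 were higher and 0 lower, against 5.05% and 5.61% of all genes. Hamp, the iron hormone hepcidin, ran from 6.12 to 7.26 untreated and was at 7.40, 7.36 and 7.76 with AAV-GFP (0.71 ± 0.29 SE, adjusted p = 0.454). Complement and coagulation factors had a median of 0.15 over 32 genes, with 21 above 0 and 11 below. At that threshold 2 of them were higher and 1 lower. C8g, a chain of complement component C8, ran from 6.98 to 7.24 untreated and was at 7.64, 7.93 and 8.23 with AAV-GFP, clear of each other (0.86 ± 0.21 SE, adjusted p = 0.454). Cyp7a1, the rate-limiting enzyme of bile acid synthesis, was at 3.28, 3.41 and 2.66 untreated and at 2.35, 3.81 and 3.61 with AAV-GFP (0.14 ± 0.39 SE, adjusted p = 0.871), and its second probe differed by -0.53.

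Bile acid genes had a median of 0.09 over 30 genes (0.022 to 0.19 as each array was left out). At an unadjusted p under 0.05, 3 were higher and 0 lower, against 5.05% and 5.61% of all genes. The 3 were Slc51b, a subunit of the basolateral bile acid exporter (1.27 ± 0.39 SE), Cyp2c70, which makes the muricholic acids of mice (0.70 ± 0.22 SE), and the uptake carrier Slco1a1 (0.85 ± 0.29 SE). Of 22 immediate early genes tested, 12 lay above 0 and 10 below, with a median of 0.11. At an unadjusted p under 0.05, 3 were higher and 2 lower, against 5.05% and 5.61% of all genes. Among them Klf2, a factor of endothelial cells under flow, was at 6.70, 5.88 and 5.38 untreated and at 7.05, 7.12 and 7.05 with AAV-GFP. Its AAV-GFP group was tight (1.08 ± 0.29 SE, adjusted p = 0.454), and its second probe differed by 0.61. Fosb, a subunit of AP-1, differed by 1.22 ± 0.31 (SE), with 1 untreated array well above background, so it was kept through the AAV-GFP arrays, where it is high. Eif2ak3, the stress kinase PERK, was at -0.03, 0.19 and 0.27 untreated and at -0.42, -0.46 and -0.37 with AAV-GFP (-0.56 ± 0.15 SE, adjusted p = 0.454). Its list, the unfolded protein and integrated stress response, went mostly the other way, with 23 of 31 genes above 0 and a median of 0.15. In that list 0 were higher and 2 lower at an unadjusted p under 0.05. Lists of drug-metabolizing enzymes (median 0.05), gluconeogenesis (0.04), amino acid and urea metabolism (0.10) and targets of PPARalpha (-0.02) lay close to the median of all genes.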

How the data were processed

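Liver RNA was measured on single-colour Agilent mouse arrays, with Cy3-labelled RNA made from 500 ng of total RNA per the labels' protocols. Per the file headers, each array file holds spot intensity on a linear scale, already corrected for background within the array and not scaled between arrays, with flags for spots above background, saturated or outlying. Spots were read with version 9.5 of Agilent's Feature Extraction, which the submitters' processing notes name. The deposited series table holds identical values (largest difference 0, column medians 34.2 to 75.6). Flag columns of the deposited files are coded 0 or 1, per the file headers.

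Control spots (45018 spots in all, 43379 of genes) and outlier spots were left out, spots of a probe were averaged, and log2 of the intensity was taken minus the array's 75th percentile. Outlier spots left 88 genes with a missing array, which the fit dropped for that gene. The probe with the highest mean over the 6 arrays stood for the 5172 genes with several probes. Names came from a RefSeq table of assembly GRCm38.p6 (23082 probes by accession, 6582 by symbol, 3073 by older symbol, 292 by gene identifier), and 8145 kept the files' name. Number of arrays and signal over background limit precision.

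Levels were fitted with limma 3.58.1 in R 4.3.3 (lmFit, eBayes, two-sided, all 9 arrays, 6 residual degrees of freedom) and adjusted by Benjamini-Hochberg over the 15857 genes at 0.05. The fit was tested on simulated data. A bound of "at least" sets the brighter group's mean against, on each dim array, the higher of the lowest signal well above background and the probe's own. Such bounds were worked out under the scanner's own background correction alone. The named genes are 15 of interest, the 10 of smallest p and the 2 of smallest p in each of 44 lists (1279 entries, 1249 on the array, 1169 tested), and others are said to be named after their values were seen. Not every gene that this rule names is given in the text. Members and lists were chosen with earlier results of these data known. Alternatives covered scaling, background correction, filters, probes per gene, arrays fitted, weights, scan day, slide, replicate number and leaving out each array.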

Additional observations from a re-analysis of the deposited data

How the results depend on the processing

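The count of genes past the threshold, 0, was 0 to 1 when each array was left out in turn. It was 14 (7 higher, 7 lower) with arrays scaled to their medians, 1 (Adam12) with quantile normalization or with scan day as a block, 1 (Hbb-bh1) within scan day 1 and 7457 with array quality weights. Those weights did not converge and gave AAV-GFP replicate 2 89.6% of its group's weight. Where the count stayed at 0, genes at an unadjusted p under 0.05 numbered 54 with normexp background correction and 849 with slide as a random block. Elsewhere they were 1068 with median scaling, 4016 within day 1 and 8728 with the weights. Causes were not tested.

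Deviations from the group means correlated at -0.18 and -0.33 for the untreated and AAV-GFP arrays numbered 2 and 3. Untreated and AAV-GFP arrays of the same scan day correlated at 0.09 to 0.54. Arrays that shared a number were scanned on different days, so these values cannot decide whether the numbers pair the samples. With the replicate number as a block the count was 0 (864 at an unadjusted p under 0.05), and with numbers 2 and 3 only it was 1, Adam12 (396).

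Of 106 named genes, 89 kept their sign in all settings, some of which leave differences unchanged and so could not turn a sign. Within day 2 the sign turned for Isg15 (-0.17), Cxcl10 (-0.57), Saa1 (0.13), Nr3c1 (0.019), Tat (0.25), Ly6c1 (-0.080), Hba-a1 (-0.13) and Nr3c2 (0.062), and within day 1 for Fkbp5 (-0.55) and Pck1 (-0.045). With normexp it turned for Olfr658 (0.011), Nr3c2 (0.038) and Cyp7a1 (-0.00752), with no filter for Fgf14 (0.22) and Kif11 (-0.32), and with the mean of a gene's probes for Fkbp5 (-0.11), Cyp7a1 (-0.19) and Psmd7 (-0.18). With array weights it turned for Fkbp5 (-0.81), Pck1 (-0.067) and Cd74 (0.13), and with the block on numbers 2 and 3 for Mki67 (0.042). Leaving out each array gave -0.028 to 0.45 for Cxcl10, -0.69 to 1.24 for Fkbp5 and -0.14 to 0.59 for Cyp7a1.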
